A study of Mus musculus with 21 samples.

Results

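The transcripts of 10 genes of megakaryocytes and platelets were examined in HSCs after 5-FU and in old HSCs. They are Itga2b, Itgb3, Gp1bb, Gp9, Gp5, Vwf, Pf4, Cd9, F2r and Treml1, taken by symbol from the 21000 gene symbols of the count table. The genes were selected on their levels in these libraries and on the comparisons of 5-FU, of the number of rounds and of age that are described here. Their values are therefore given as a description without p-values, and counts of them past a threshold support nothing.

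HSCs were sorted as CD150+CD48-Lin-Sca-1+c-Kit+ cells from the bone marrow of wild-type mice of the C57BL/6 background, and 3000–3500 cells were used for each RNA sequencing library. Mice that were 10 weeks old at the start received intraperitoneal PBS or 5-FU (150 mg/kg), an antimetabolite that kills dividing cells and after which HSCs begin to divide, in 1 round or in 3 rounds at intervals of 21 days. HSCs given 1 round were isolated at day 6 (PBS-1 d6 and 5FU-1 d6) or at day 21 (5FU-1 d21), and HSCs given 3 rounds at day 6 (PBS-3 d6 and 5FU-3 d6) or at day 21 (5FU-3 d21) of the last round. Old HSCs came from untreated mice aged 2 years. Each of the 7 groups had 3 libraries, and no PBS group of day 21 was analysed here. The methods of the paper admit cells of lower c-Kit to the gate at day 6 after 5-FU and omit Mac-1 from the lineage mix, so the gate and the drug cannot be told apart there.

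Megakaryocytes are the bone marrow cells that shed platelets, and they arise from HSCs through progenitors that carry several of the same surface proteins. The integrin αIIbβ3 binds fibrinogen and joins platelets to each other, the GPIb-IX-V complex binds von Willebrand factor at sites of injury, and the alpha granules store proteins that platelets release. Thrombopoietin is a growth factor both of megakaryocytes and of HSCs, and HSCs are known to carry transcripts of this programme, among them Vwf and Itga2b. A transcript level in a sorted population can fall because fewer cells carry the transcript or because each cell carries less, and these cannot be told apart in bulk libraries.

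Libraries held 22184885 to 38649033 counts (median 26962256). Levels are given as normalized CPM, which are counts divided by the library total and scaled by TMM factors over all 21 libraries, and 3 counts, taken as the smallest signal of a library, corresponded to 0.0850 to 0.128 CPM. This floor covers counting error only. All 10 HSC markers examined (such as Slamf1, Procr and Mecom) were detected in every group, with sums of 2039 to 2928 normalized CPM per library. The 8 markers of mature megakaryocytes and platelets (Ppbp, Tubb1, Gp6, Clec1b, Gp1ba, P2ry12, Alox12 and Itga2) summed to 13.7 to 32.4, and Gp6, the collagen receptor of platelets, had no count in 20 of the 21 libraries.

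RefSeq promoter entries on GRCm38.p6 were found for 8 of the 10 members, and not for Vwf and Itgb3. Because 7 members were lower together at day 6 after the first 5-FU, the promoters of 5 of these are shown. Left out are Itgb3, which has no entry, and Gp1bb, whose exons share bases with Septin5. Shown are the 150 bases before the start site of Itga2b (chr11:102469884-102470033, minus strand), Gp9 (chr6:87777920-87778069, plus strand), Gp5 (chr16:30310782-30310931, minus strand), Pf4 (chr5:90772285-90772434, plus strand) and Treml1 (chr17:48359766-48359915, plus strand), 5′ to 3′ on the strand of the gene. The bases of Itga2b lie before its RefSeq start but inside the gene as GENCODE annotates it (chr11:102453297-102470122). Capitals mark matches on either strand to the motifs of megakaryocyte transcription factors searched.
Itga2b: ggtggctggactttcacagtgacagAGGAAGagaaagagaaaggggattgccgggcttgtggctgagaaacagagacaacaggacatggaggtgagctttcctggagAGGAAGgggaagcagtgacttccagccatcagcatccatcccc
Gp9: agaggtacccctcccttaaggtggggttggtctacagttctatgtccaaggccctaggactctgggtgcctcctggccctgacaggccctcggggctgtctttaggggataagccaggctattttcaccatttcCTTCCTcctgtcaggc
Gp5: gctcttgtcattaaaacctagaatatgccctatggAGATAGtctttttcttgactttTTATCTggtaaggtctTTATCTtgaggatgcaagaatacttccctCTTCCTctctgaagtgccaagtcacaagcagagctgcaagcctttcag
Pf4: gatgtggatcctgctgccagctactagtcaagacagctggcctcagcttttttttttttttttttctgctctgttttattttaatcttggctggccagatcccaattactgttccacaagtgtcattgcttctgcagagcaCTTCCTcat
Treml1: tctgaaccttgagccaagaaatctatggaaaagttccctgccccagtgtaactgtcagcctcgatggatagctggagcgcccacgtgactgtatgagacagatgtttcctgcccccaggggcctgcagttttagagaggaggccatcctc
The motifs searched for GATA factors were AGATAA, then also TGATAA, further AGATAG, and lastly TGATAG. Those for ETS factors were AGGAAG or else CGGAAG, and those for RUNX factors were TGTGGT or else TGCGGT. NF-E2 was searched as TGAGTCA, and no motif contains another. In the whole window of 250 bases before to 50 bases after the start, a GATA match was present in 3 of the 8 members (Gp1bb, Gp5 and Pf4) and in 29.76% of 32851 promoters. ETS matches were present in 6 of the 8 members and in 46.47% of promoters, RUNX matches in 2 (Gp9 and F2r) and 22.41%, and an NF-E2 match in 1 (F2r) and 5.202%. Gp5 held the most GATA matches of the 8, with 3, which start 115, 93 and 77 bases before the start. Treml1 held no match to any of the motifs in this window. A match is a description of letters and not a bound site.

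At day 6 after the first 5-FU, the transcripts of the integrin, of the 3 GPIb-IX-V subunits, of Pf4 and of Treml1 were lower than in PBS-treated HSCs, and those of Vwf, Cd9 and F2r were not. The remaining level was 12.1% of the PBS-1 d6 mean for Gp1bb, 12.4% for Treml1, 21.4% for Itgb3 and 27.7% for Itga2b. At day 6 after the third 5-FU the same 4 genes were at 61.4%, 49.3%, 35.1% and 63.6% of the PBS-3 d6 mean. At day 21 after either round all 10 members were within 1 log2 unit of the PBS group of their round, and in old HSCs Vwf stood highest of the 7 groups.

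**Figure D1:**
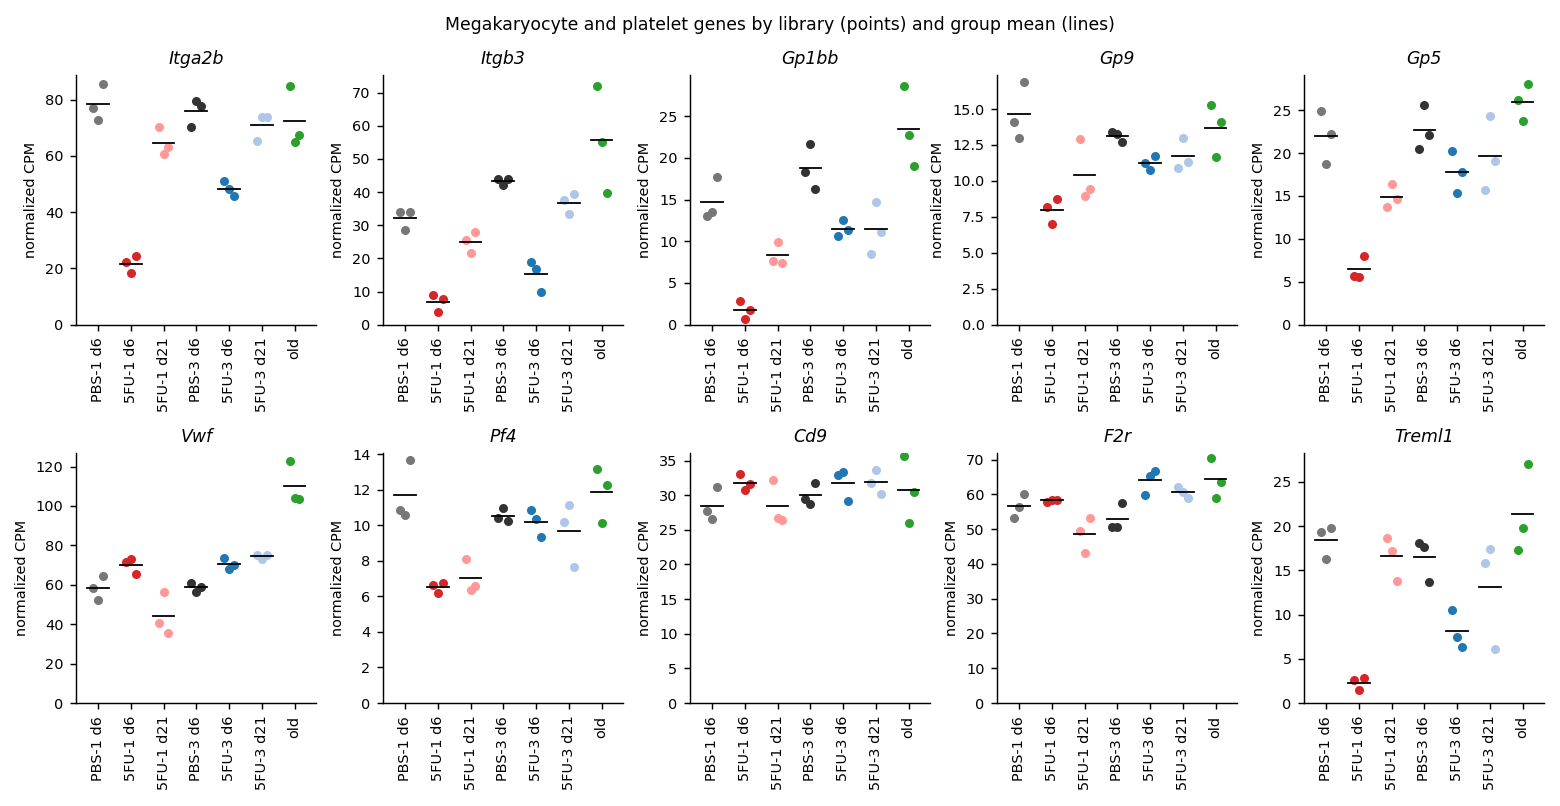
Normalized CPM (vertical axes, from 0) of the 10 members in each of the 21 libraries (points, 3 per group) with the group mean (line). Itga2b, Itgb3, Gp1bb, Gp9, Gp5, Pf4 and Treml1 have their lowest mean in the 5FU-1 d6 group, Vwf has its highest in old HSCs, and the groups of Cd9 overlap throughout.

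Itga2b (CD41, chr11:102453297-102470122 on GRCm38) encodes the αIIb chain of the fibrinogen receptor. Its normalized CPM was 77.02, 72.7 and 85.6 in the PBS-1 d6 libraries and 22.1, 18.6 and 24.5 in the 5FU-1 d6 libraries. In the third round it was 70.3, 79.4 and 77.9 with PBS and 50.97, 48.1 and 45.8 with 5-FU. All 3 libraries of 5FU-1 d6 lay below all 3 of 5FU-3 d6, and these in turn below the libraries of the other 5 groups. The log2 fold change was −1.86 (SE 0.12) after the first 5-FU and −0.67 (SE 0.09) after the third. At day 21 the level was 70.4, 60.6 and 63.3 after 1 round and 65.4, 73.7 and 73.97 after 3 rounds, and in old HSCs it was 84.7, 64.9 and 67.5, which overlaps PBS-3 d6.

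Itgb3 (chr11:104608000-104670476), the β3 chain that pairs with αIIb and also with the αv integrin, followed the same order at day 6. Its normalized CPM was 33.9, 28.5 and 34.2 in PBS-1 d6 and 8.91, 3.89 and 7.88 in 5FU-1 d6, with a log2 fold change of −2.24 (SE 0.28). At day 6 of the third round it was 44.02, 42.3 and 44.01 with PBS and 18.9, 16.8 and 9.97 with 5-FU, a log2 fold change of −1.54 (SE 0.22). No library of either 5-FU group reached a PBS library of its round, and the third 5FU-3 d6 library was the lowest of its group. The PBS groups themselves did not overlap for this gene, with a log2 difference of 0.44 (SE 0.09) between PBS-3 d6 and PBS-1 d6. The old libraries spread widely at 72.1, 55.2 and 39.8, and the third of them lay below PBS-3 d6.

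Of 4 other integrin subunits of platelets, 3 did not pass the test at day 6 after the first 5-FU and 1 fell. Itgb1, the β1 chain of the collagen receptor, was at 81.8 ± 3.68 normalized CPM in PBS-1 d6 and 85.9 ± 3.59 in 5FU-1 d6 (SD, n = 3 libraries each), a log2 fold change of 0.06 (SE 0.07) with an adjusted p of 0.579 from edgeR. Itgav, the αv chain, was at 19.3 ± 3.10 and 15.2 ± 1.36, with −0.35 (SE 0.14) and an adjusted p of 0.113 from edgeR. Itga6, the α6 chain of the laminin receptor, was at 176 ± 11.5 and 169 ± 17.9, with −0.07 (SE 0.10) and an adjusted p of 0.64 from edgeR. Whether their changes differ from that of Itga2b was not tested. Itga2, the α2 chain of the collagen receptor, fell from 4.78, 5.45 and 2.91 to 2.02, 0.889 and 0.612 (log2 fold change −1.91, SE 0.52, adjusted p = 0.0389 from edgeR). The call of Itga2 was lost without any 1 of the 6 libraries but the first 5FU-1 d6 library (adjusted p from 0.0535 to 0.112 by edgeR).

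Gp1bb (chr16:18620317-18622403) encodes the GPIbβ subunit of the receptor for von Willebrand factor. It had 12.97, 13.5 and 17.8 normalized CPM in PBS-1 d6 and 2.86, 0.741 and 1.76 in 5FU-1 d6, where its values rest on 68, 20 and 46 reads. After the third dose it had 18.4, 21.7 and 16.2 with PBS and 10.6, 12.5 and 11.4 with 5-FU. Neither pair of groups overlapped, and the log2 fold change was −3.06 (SE 0.42) after the first 5-FU and −0.73 (SE 0.13) after the third. The exons of Gp1bb share 91.14% of their bases with Septin5 and 41.54% with Gm49601, both on the same strand. Reads in the shared parts could belong to any of these genes. Septin5 itself was counted at 2 to 56 reads per library.

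Gp9 (chr6:87778072-87779768) encodes GPIX, the small subunit that brings the complex to the surface. It had 14.1, 12.98 and 16.9 normalized CPM in PBS-1 d6 and 8.19, 7.04 and 8.76 in 5FU-1 d6, with no overlap and a log2 fold change of −0.88 (SE 0.15). After the third round it had 13.4, 13.3 and 12.7 with PBS and 11.2, 10.8 and 11.8 with 5-FU, a difference of −0.24 (SE 0.10) on the log2 scale. The 5FU-3 d6 libraries lay below PBS-3 d6 by less than 2 normalized CPM on average.

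Gp5 (chr16:30307685-30310779) encodes GPV, the subunit that thrombin cleaves. Its level was 24.9, 18.7 and 22.3 in PBS-1 d6 and 5.72, 5.59 and 7.999 in 5FU-1 d6, and its log2 fold change was −1.78 (SE 0.18). In the third round the levels were 20.4, 25.6 and 22.1 with PBS and 20.2, 15.3 and 17.8 with 5-FU (−0.37, SE 0.14). The groups of the first round were far apart, and those of the third round lay next to each other. Gp1ba, the GPIbα subunit that carries the binding site of the complex, was no member. It had 7.86, 6.86 and 8.35 normalized CPM in PBS-1 d6 and 6.51, 2.93 and 4.48 in 5FU-1 d6 (log2 fold change −0.74, SE 0.29, adjusted p = 0.114 from edgeR). At day 6 of the third round Gp1ba fell by 0.59 on the log2 scale (SE 0.14, adjusted p = 0.0276 from edgeR), a call that was lost without any 1 of the 6 libraries but the third PBS-3 d6 library (adjusted p from 0.066 to 0.084 by edgeR), and that was lost in the fit of all 21 libraries too.

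Vwf (chr6:125546774-125686679), von Willebrand factor, is the ligand that tethers platelets through GPIb, and its transcript did not fall at day 6. Its normalized CPM was 58.1, 52.2 and 64.3 in PBS-1 d6 and 71.7, 73.1 and 65.7 in 5FU-1 d6, where all 3 libraries lay above those of PBS-1 d6. After the third dose it was 60.9, 56.6 and 58.8 with PBS and 73.7, 68.2 and 70.03 with 5-FU, again without overlap. The log2 fold changes of 0.26 (SE 0.10) and 0.24 (SE 0.08) were nearly equal. Pf4 (chr5:90772435-90773383), platelet factor 4, a chemokine of the alpha granules, went the other way in the first round. It was at 10.9, 10.6 and 13.7 in PBS-1 d6 and 6.64, 6.18 and 6.77 in 5FU-1 d6 (−0.85, SE 0.15), with no overlap. After the third 5-FU it was at 10.9, 10.3 and 9.35 against 10.4, 10.95 and 10.2 with PBS (−0.07, SE 0.12), and the groups overlapped. Ppbp, the gene next to Pf4 and the other platelet chemokine, was low throughout, at 2.79 ± 0.597 in PBS-1 d6 and 1.36 ± 0.350 in 5FU-1 d6, with −1.04 (SE 0.40) and an adjusted p of 0.107 from edgeR.

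Treml1 (chr17:48359916-48367176) encodes TLT-1, a receptor that platelets expose upon activation. Its normalized CPM was 19.3, 16.2 and 19.8 in PBS-1 d6 and 2.56, 1.48 and 2.79 in 5FU-1 d6, the latter from 61, 40 and 73 reads. In the third round it was 18.1, 17.7 and 13.7 with PBS and 10.6, 7.41 and 6.37 with 5-FU. The groups did not overlap in either round, and the log2 fold change was −3.03 (SE 0.24) and then −1.04 (SE 0.21). Its neighbour Treml2, a TREM-like receptor of several blood lineages, was at 157, 164 and 128 in PBS-1 d6 and 114, 100.1 and 115 in 5FU-1 d6. In the third round Treml2 was at 180 ± 14.2 with PBS and 131 ± 3.08 with 5-FU (SD, n = 3 libraries). It was called lower by edgeR in both rounds.

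Cd9 and F2r, which act at the platelet surface but are also widely expressed elsewhere, stayed near the level of PBS. Cd9 (chr6:125460266-125494791), a tetraspanin, ranged from 26.6 to 31.2 normalized CPM in PBS-1 d6 and from 30.8 to 33.1 in 5FU-1 d6, with a log2 fold change of 0.15 (SE 0.09) and then 0.06 (SE 0.09) in the third round. F2r (chr13:95601803-95618487), the thrombin receptor PAR1, ranged from 53.1 to 60.3 and from 57.9 to 58.5 in the same groups, with 0.03 (SE 0.07) and then 0.25 (SE 0.09). At day 6 of the third round all 5FU-3 d6 libraries of F2r (59.9, 65.4 and 66.8) lay above PBS-3 d6 (50.5, 50.8 and 57.6). Mouse platelets are known to signal thrombin through PAR3 and PAR4 rather than PAR1. F2rl3 (PAR4) was at 26.1 ± 3.04 in PBS-1 d6 and 30.4 ± 1.66 in 5FU-1 d6. F2rl2 (PAR3) fell from 5.82, 4.10 and 4.92 to 2.56, 1.41 and 2.37 (log2 fold change −1.24, SE 0.32, adjusted p = 0.034 from edgeR), a call that was lost without any 1 of the 6 libraries (adjusted p from 0.0558 to 0.103 by edgeR). In the third round F2rl2 fell from 7.01 ± 2.43 to 3.02 ± 0.573 (−1.23, SE 0.33, adjusted p = 0.0426 from edgeR; SD, n = 3 libraries). That call was lost without any 1 of the 6 libraries but the third PBS-3 d6 library (adjusted p from 0.0669 to 0.125 by edgeR). F2rl1 (PAR2) had no count in 19 of the 21 libraries.

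**Figure D2:**
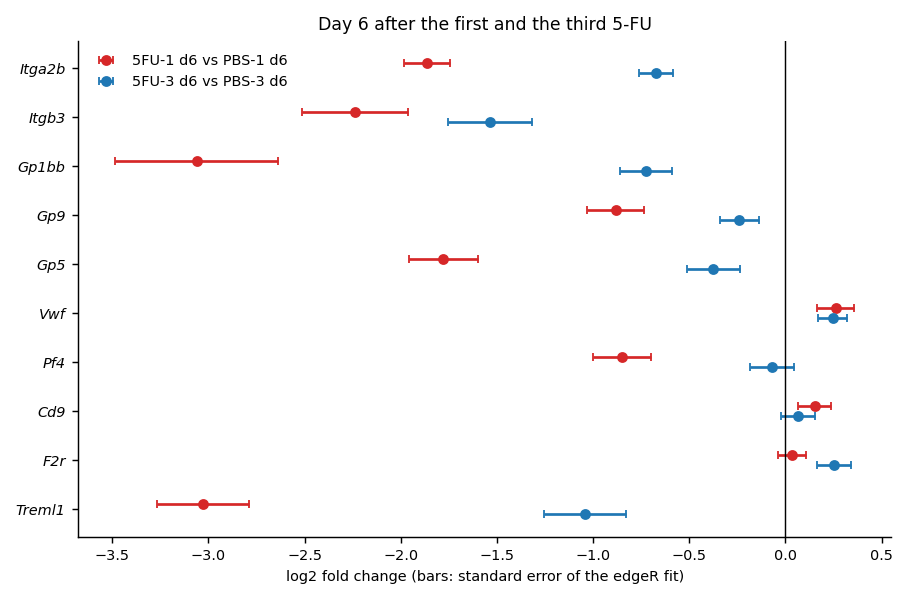
Log2 fold change of 5-FU against PBS at day 6 (horizontal axis) for the 10 members (vertical axis) after the first round (5FU-1 d6 against PBS-1 d6) and the third (5FU-3 d6 against PBS-3 d6). Bars are standard errors of the edgeR fit, 3 libraries per group. Itga2b moves from −1.86 to −0.67 and Gp1bb from −3.06 to −0.73, while Vwf stays at 0.26 and 0.24.

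By the quasi-likelihood F test of edgeR at an adjusted p under 0.05, 7 of the 10 members were lower in 5FU-1 d6 than in PBS-1 d6. Over all 12759 genes tested, 21.6% passed in either direction and 10.3% were lower. After the third round 4 of the 10 (Itga2b, Itgb3, Gp1bb and Treml1) were lower, with 17.9% of all 12729 genes passing and 8.20% lower, and the 4 are 57.1% of the 7 genes of the first round. The median log2 fold change of the members was −1.33 after the first and −0.31 after the third 5-FU, against −0.00056 and −0.012 over all genes tested. The libraries did not overlap, with 5-FU lower, for 7 members after the first and 6 after the third round, beside 19.8% and 17.8% of all genes. Since the members were chosen with these comparisons in view, nothing is read from these counts. Without the third 5FU-3 d6 library the count after the third round was 2 of 10.

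The day 6 effects of the rounds were compared in 1 model over 12 libraries, in which a positive value means a smaller fall, or a larger rise, after the third 5-FU. The difference was 1.20 (SE 0.15) for Itga2b, 2.35 (SE 0.44) for Gp1bb, 1.42 (SE 0.24) for Gp5 and 2.00 (SE 0.34) for Treml1 on the log2 scale. These 4 of the 10 members passed the threshold, beside 0.635% of 13227 genes in either direction and 0.333% in the positive direction. Gp9 (0.65, SE 0.17), Pf4 (0.79, SE 0.17) and Itgb3 (0.71, SE 0.38) had positive differences that did not pass, and Vwf (−0.0031, SE 0.12), Cd9 (−0.07, SE 0.12) and F2r (0.23, SE 0.11) were within 0.25 of 0. The count of 4 was 1 without the first 5FU-3 d6, the first or the third PBS-1 d6, or the first or the third PBS-3 d6 library, 2 without the third 5FU-3 d6 or second PBS-3 d6 library, and 3 without any other of the 12, and Itga2b was the member that passed in each of the 19 alternatives tried. Between the PBS groups, PBS-3 d6 and PBS-1 d6, 0 of 10 members passed the threshold with edgeR, beside 0.0156% of 12806 genes (2 genes). By edgeR 1611 genes had an unadjusted p under 0.05, and DESeq2 passed 547 genes, with 1 member among them. The libraries of the PBS groups did not overlap for 20.0% of all genes, so the few calls do not show that these groups were alike. The largest member difference between them was that of Itgb3, given above. The columns of PBS-1 d6 and 5FU-1 d6 carry a name suffix of unstated meaning, and those of PBS-3 d6 and 5FU-3 d6 do not. The round and the suffix therefore cannot be told apart in this model, nor between the PBS groups.

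Sums of other markers also changed at day 6, not all in the direction of the members, and their part in the result was not tested. The 13 granulocyte and monocyte markers summed to 102 to 154 normalized CPM in PBS-1 d6 and 61.5 to 76.8 in 5FU-1 d6, and to 93.4 to 126 in PBS-3 d6 and 53.4 to 77.6 in 5FU-3 d6. The 4 progenitor markers (Cd48, Flt3, Cd34 and Fcgr3), of which the sort excluded CD48 and, per the paper's methods, Flt3, summed to 324 to 391 in PBS-1 d6 and 218 to 230.3 in 5FU-1 d6, and to 420 to 465 and 261 to 320.0 in the third round. Of these 4, 1 was called higher and 2 lower by edgeR in each round, beside 21.6% and 17.9% of all genes called. The 10 erythroid markers summed to 38.2 to 50.7 in PBS-1 d6 and 62.2 to 68.0 in 5FU-1 d6, where 1 of the 6 tested was higher and 2 were lower, and to 36.8 to 55.7 in PBS-3 d6 and 43.97 to 55.5 in 5FU-3 d6, where 2 of 7 were higher and 2 lower. The 8 mature megakaryocyte markers summed to 22.8 to 25.6 in PBS-1 d6, where Itga2b alone was at 72.7 to 85.6, and to 15.7 to 20.8 in 5FU-1 d6. After the third dose they summed to 25.3 to 32.4 with PBS and 18.7 to 23.0 with 5-FU. Of the 7 tested, 1 was called higher (Alox12) and 1 lower (Itga2) in the first round, and 0 higher and 2 lower in the third. Kit, which the widened gate bears on, fell by 0.86 on the log2 scale after the first 5-FU (SE 0.07, adjusted p = 0.00113 from edgeR) and by 0.44 after the third (SE 0.07, adjusted p = 0.00739). Kit is 1 of the 10 HSC markers. Of these, 3 were called higher and 1 lower after the first 5-FU, and 1 higher and 4 lower after the third.

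The wider programme was followed in 102 further genes in 6 lists by role, taken from textbook knowledge. The lists were chosen with earlier results of these data known. Their counts are therefore a description and no independent check of the members. At day 6 after the first 5-FU, 93 of them could be tested with edgeR, 28 fell and 7 rose, beside 21.6% of all genes called and 10.3% lower, and their median log2 fold change was −0.20 against −0.00056 over all genes. After the third 5-FU 95 could be tested, 22 fell and 8 rose, beside 17.9% of all genes called and 8.20% lower, with a median of −0.11 against −0.012. Of the 28 and 22 genes that fell, 13 were shared (46.4% and 59.1% of the lists), and of the 7 and 8 that rose, 4 were shared (Selp, Sh2b3, Tbxa2r and Tpm4, 57.1% and 50%). The total of 35 called after the first round was 21 to 26 without any 1 library (21 without the second 5FU-1 d6 library), and that of 30 after the third round was 18 to 21 (18 and 19 without the third and the first 5FU-3 d6 library, and 19 without the second PBS-3 d6 library).

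**Figure D3:**
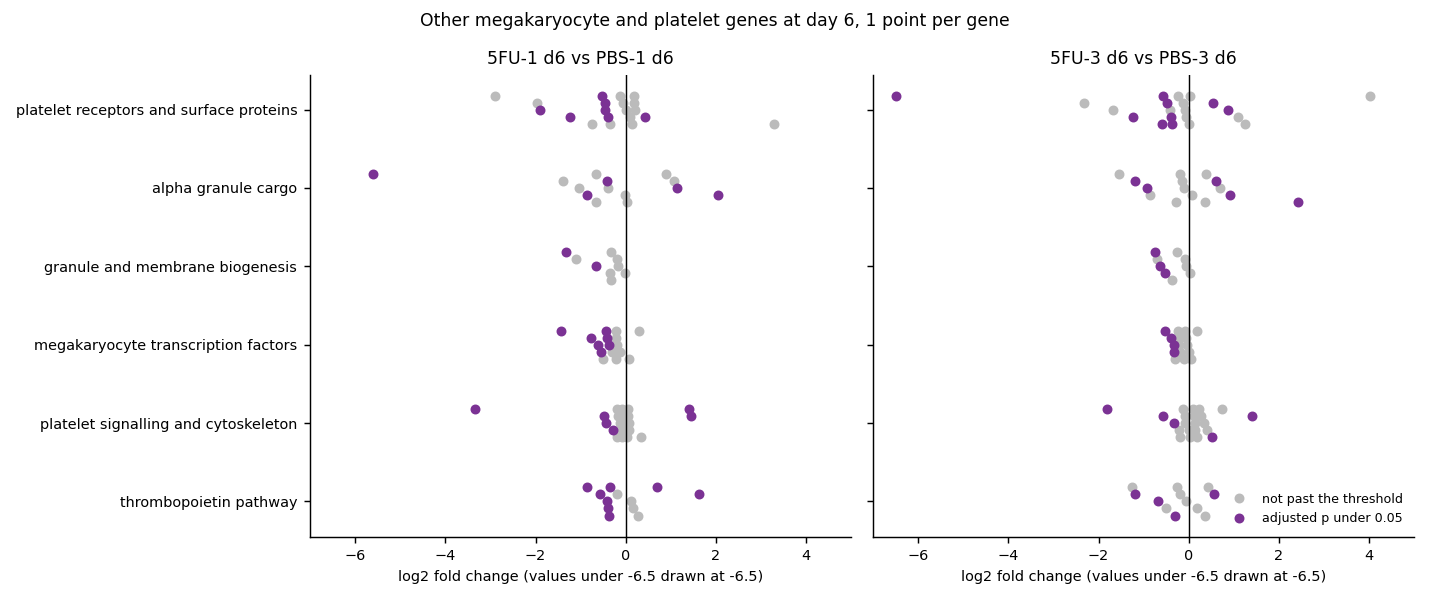
Log2 fold change at day 6 (horizontal axes) of the tested genes of 6 lists of megakaryocyte and platelet genes (vertical axis), 1 point per gene, after the first round (left) and the third (right), with purple for an adjusted p under 0.05. Among the megakaryocyte transcription factors 7 of 16 are purple after the first round and 4 of 16 after the third, all of them to the left of 0. The point at the left edge of the right panel is Clec1b, which had no count in 5FU-3 d6.

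Among the 16 megakaryocyte transcription factors, 7 fell and none rose after the first 5-FU, and 4 fell and none rose after the third, beside 10.3% and 8.20% of all genes lower. Gata1, the factor that drives megakaryocyte and erythroid genes, was at 14.2, 14.3 and 18.7 normalized CPM in PBS-1 d6 and 4.75, 3.56 and 9.30 in 5FU-1 d6 (log2 fold change −1.43, SE 0.34, adjusted p = 0.0264 from edgeR). The third 5FU-1 d6 library was the highest of its group, and the call was lost without any 1 of the 6 libraries but the third 5FU-1 d6 library (adjusted p from 0.052 to 0.0838 by edgeR). In the third round Gata1 was at 17.6, 20.3 and 16.9 with PBS and 21.7, 17.2 and 14.2 with 5-FU, which overlap. The difference between the rounds, 1.37 (SE 0.41), had an adjusted p of 0.142 from edgeR. Nfe2, the factor needed for platelet release, was at 1974, 2143 and 2069 in PBS-1 d6 and 1513, 1543 and 1605 in 5FU-1 d6 (−0.42, SE 0.05, adjusted p = 0.00362 from edgeR), and it fell by nearly the same amount in the third round (−0.41, SE 0.06, adjusted p = 0.00782). Fli1, an ETS factor of megakaryocyte genes, was at 66.9 ± 2.14 and 58.4 ± 1.03 in the first round (−0.20, SE 0.07) and did not pass the threshold (adjusted p = 0.0657 from edgeR). The other factors that fell, named after their values were seen, were Gfi1b, Runx1, Zfpm1, Gata2 and Meis1 after the first round and Runx1, Meis1 and Ldb1 after the third. Leaving out 1 library gave 5 to 8 factors after the first round, and 2 to 3 after the third.

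In the thrombopoietin pathway 6 of the 12 genes tested fell and 2 rose after the first 5-FU, and 3 fell and 1 rose after the third, beside 21.6% and 17.9% of all genes called in either direction. Jak2, Tyk2, Stat3, Stat5a and Stat5b, which are kinases and STAT factors of cytokine signalling, fell after the first 5-FU, by 0.35 to 0.58 on the log2 scale, and are named after their values were seen. The 8 genes called in this list were 6 to 8 when 1 library was left out, and the 4 of the third round were 2 to 3. The inhibitors Socs2 and Sh2b3 (LNK) rose. Socs2 went from 96.9, 138 and 113 to 320.3, 368 and 389 (1.62, SE 0.14, adjusted p = 0.0013 from edgeR), and in the third round it was at 115, 79.6 and 90.02 and 118, 152 and 120.1 (0.43, SE 0.16, adjusted p = 0.112). Sh2b3 rose in both rounds (0.69, SE 0.07 and 0.57, SE 0.12, adjusted p = 0.00184 and 0.0245 from edgeR), and in the third round its call was lost without any 1 of the 6 libraries but the first 5FU-3 d6 or the second PBS-3 d6 library (adjusted p from 0.0614 to 0.0799 by edgeR).

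In the alpha granule list 3 of 14 genes fell and 2 rose after the first 5-FU, and 2 of 15 fell and 3 rose after the third, beside 21.6% and 17.9% of all genes called in either direction. With 1 library left out, 4 to 6 genes of the list were called after the first round and 3 to 4 after the third. Mmrn1, multimerin 1, the carrier of factor V in the granule, fell from 665, 658 and 636 to 383, 355 and 346 (−0.86, SE 0.06, adjusted p = 0.000652 from edgeR) and in the third round from 640.3, 627 and 589.8 to 227, 314 and 285 (−1.19, SE 0.12, adjusted p = 0.0029). Selp, P-selectin, the adhesion molecule of the granule membrane, moved in the opposite direction to Mmrn1. It rose from 11.2, 8.92 and 9.63 in PBS-1 d6 to 41.8, 41.96 and 39.4 in 5FU-1 d6 (2.04, SE 0.10, adjusted p = 0.000345 from edgeR). At day 6 of the third round it rose from 23.8, 31.5 and 33.7 to 58.7, 58.4 and 53.4 (0.92, SE 0.14, adjusted p = 0.00738 from edgeR). The PBS-3 d6 libraries of Selp all lay above those of PBS-1 d6 (1.58, SE 0.16, adjusted p = 0.086 from edgeR). Thbs1, thrombospondin 1, fell from 5.60, 5.07 and 3.68 in PBS-1 d6 to 0.294, 0 and 0 in 5FU-1 d6, where 2 of the 3 libraries had no count (−5.61, SE 1.08, adjusted p = 0.0132 from edgeR). Sparc, a matrix protein stored in the granule, was at 0.900, 1.15 and 1.32 in PBS-3 d6 and 5.87, 6.52 and 5.98 in 5FU-3 d6 (2.42, SE 0.29, adjusted p = 0.00382 from edgeR), a call lost in the fit of all 21 libraries (0.134). The call of F5, coagulation factor V, which was higher in the first round (1.13, SE 0.31, adjusted p = 0.0393 from edgeR) was lost without any 1 of the 6 libraries but the first PBS-1 d6 library (adjusted p from 0.0764 to 0.11 by edgeR). After the third dose the call of Clu (−0.93, SE 0.24, adjusted p = 0.0371 from edgeR) was lost without any 1 of the 6 libraries but the first 5FU-3 d6 library (adjusted p from 0.0502 to 0.115 by edgeR), and that of Tgfb1, a growth factor of the granule (0.61, SE 0.14, adjusted p = 0.0283), was lost without any 1 of the 6 libraries but the first PBS-3 d6 library (adjusted p from 0.0591 to 0.0869 by edgeR).

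Of the platelet signalling and cytoskeleton genes, 4 of 22 fell and 2 rose after the first 5-FU, and 3 of 22 fell and 2 rose after the third. These shares are near those over all genes called, 21.6% and 17.9%. The 6 called after the first round were 3 to 4 when 1 library was left out, and the 5 of the third round were 4 to 5. Plek, pleckstrin, the main substrate of protein kinase C in platelets, fell most among those with counts in every library. It was at 46.2, 43.8 and 50.5 in PBS-1 d6 and 3.32, 2.04 and 8.50 in 5FU-1 d6 (−3.35, SE 0.44, adjusted p = 0.00402 from edgeR), and at 54.7, 61.01 and 50.1 in PBS-3 d6 and 15.01, 16.7 and 16.2 in 5FU-3 d6 (−1.81, SE 0.10, adjusted p = 0.00128). Tpm4, a tropomyosin of the platelet cytoskeleton, rose in both rounds by 1.39 and 1.39 on the log2 scale (adjusted p = 0.00204 and 0.00529 from edgeR), from 13.7, 9.59 and 12.6 to 32.6, 33.4 and 28.9 in the first. Alox12, the platelet 12-lipoxygenase, rose in the first round (1.45, SE 0.30, adjusted p = 0.0171 from edgeR), and its call was lost without the first 5FU-1 d6 or the third 5FU-1 d6 or the third PBS-1 d6 library (adjusted p from 0.0515 to 0.0525 by edgeR). In the granule and membrane biogenesis list 2 of 9 genes fell after the first and 3 of 9 after the third round, and none rose, beside the same shares over all genes. Cavin2, a protein of caveolae and platelet membranes, fell from 35.4, 29.1 and 33.3 to 13.9, 10.04 and 15.6 (−1.32, SE 0.17, adjusted p = 0.00376 from edgeR) and from 31.2, 30.1 and 28.8 to 18.5, 19.1 and 16.4 in the third round (−0.76, SE 0.09, adjusted p = 0.00386).

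Of the platelet receptors and surface proteins, 6 of 20 fell and 1 rose after the first 5-FU, and 7 of 21 fell and 2 rose after the third, beside 21.6% and 17.9% of all genes called in either direction. The 7 called after the first round were 0 to 4 when 1 library was left out, and the 9 of the third round were 4 to 7. P2ry1, an ADP receptor that starts platelet shape change, was the gene of the 102 that passed in opposite directions. It went from 21.1, 20.4 and 19.5 to 16.6, 13.96 and 12.2 in the first round (−0.52, SE 0.12, adjusted p = 0.025 from edgeR) and from 16.04, 13.6 and 16.6 to 33.1, 29.7 and 22.8 in the third (0.86, SE 0.16, adjusted p = 0.013). The difference between the rounds was 1.40 (SE 0.21, adjusted p = 0.018 from edgeR), and it passed in each of the 19 alternatives. The call of the first round was lost without any 1 of the 6 libraries but the first 5FU-1 d6 library (adjusted p from 0.0544 to 0.0798 by edgeR), and it was lost in the fit of all 21 libraries too. Clec1b, the podoplanin receptor CLEC-2, had 3.09, 2.54 and 4.05 normalized CPM in PBS-3 d6 and no count in 5FU-3 d6, so it was at least 35.0-fold lower there against the floor of 3 counts per library (adjusted p = 0.00522 from edgeR).

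**Figure D4:**
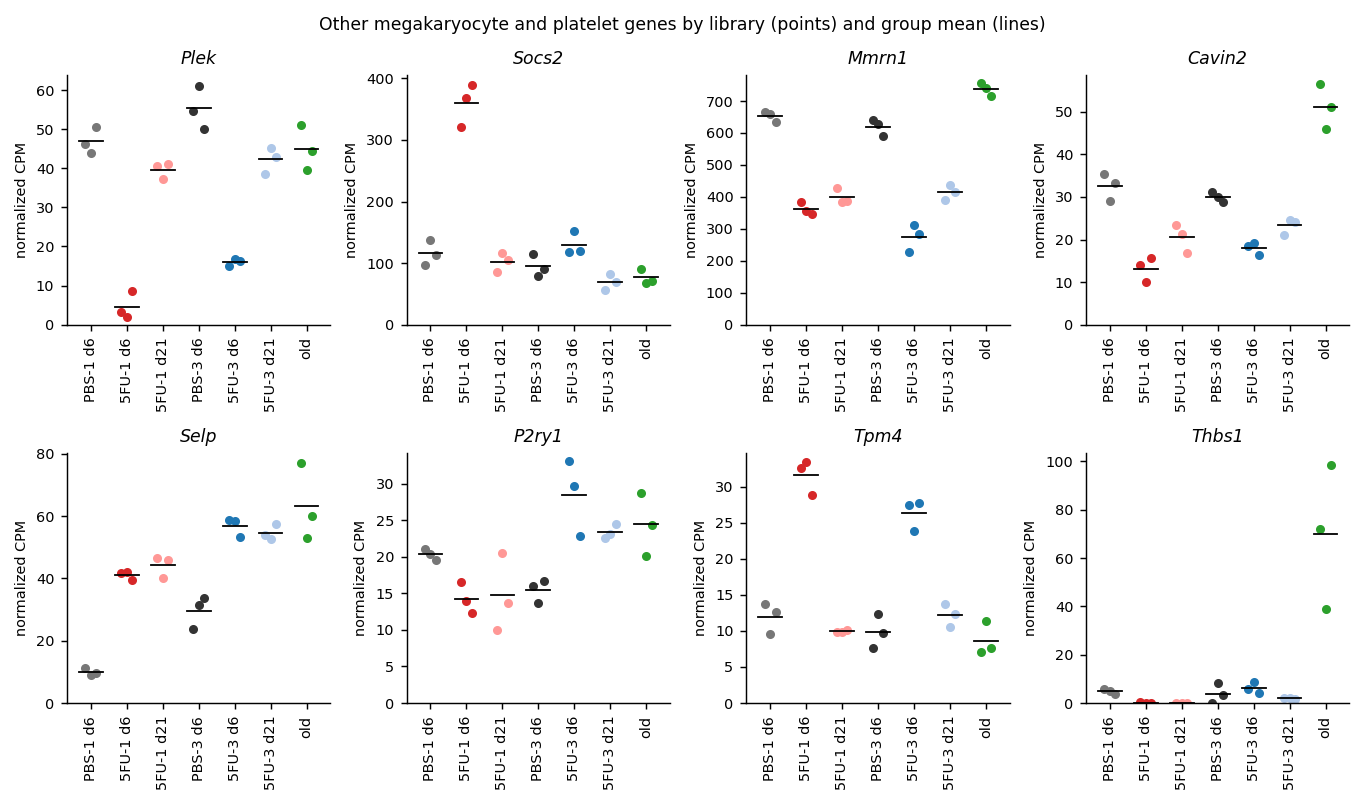
Normalized CPM (vertical axes, from 0) of 8 further genes of the programme in each of the 21 libraries (points) with the group mean (line). Plek is lowest at day 6 after 5-FU, Selp is lowest in PBS-1 d6, and Thbs1 is highest in old HSCs at 38.8 to 98.6.

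At day 21 after 5-FU no member passed the threshold against the PBS group of its round. After 1 round the count was 0 of 10, beside 0.221% of 12647 genes (28 genes, with 1672 at an unadjusted p under 0.05, and 725 by DESeq2, which passed 3 members). After 3 rounds it was 0 of 10, beside 0.0237% of 12632 genes (3 genes, with 1691 at an unadjusted p under 0.05, and 592 by DESeq2, which passed 1 member). After 1 round the libraries of 6 members (Gp1bb, Gp9, Gp5, Itga2b, Itgb3 and Pf4) nevertheless all lay below PBS-1 d6, beside 10.8% of all genes, and after 3 rounds those of 2 members lay below PBS-3 d6, beside 10.4%.

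Pf4 was at 8.08, 6.36 and 6.60 normalized CPM in 5FU-1 d21 against 10.9, 10.6 and 13.7 in PBS-1 d6, a log2 fold change of −0.74 (SE 0.17). Gp1bb was at 7.65, 9.91 and 7.43 (−0.82, SE 0.18) and Gp5 at 13.7, 16.4 and 14.7 (−0.56, SE 0.14). These levels were above those of day 6 for Gp1bb and Gp5, whereas the libraries of Pf4 overlapped between day 6 and day 21. Treml1 was at 18.7, 17.2 and 13.8 in 5FU-1 d21, which overlaps PBS-1 d6 (−0.15, SE 0.14). With PBS-3 d6 as the control, the values in 5FU-1 d21 were −1.17 for Gp1bb, −0.60 for Gp5, −0.58 for Pf4 and 0.01 for Treml1. The PBS-1 d6 and 5FU-1 d6 columns are named with a suffix of unstated meaning, which the other 15 columns do not have, so 5FU-1 d21 against PBS-1 d6 crosses it.

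After 3 rounds the day 21 values of Itga2b, Itgb3 and Gp1bb all lay below PBS-3 d6 on average. Itga2b was at 65.4, 73.7 and 73.97 (−0.10, SE 0.10), Itgb3 at 37.6, 33.3 and 39.5 (−0.24, SE 0.09) and Gp1bb at 8.45, 14.7 and 11.1 (−0.72, SE 0.22). The libraries of Gp1bb and Itgb3 lay below PBS-3 d6 without overlap. With PBS-1 d6 as the control the value of Itgb3 was 0.19, of the opposite sign. The third 5FU-3 d21 library stood apart for Treml1, with 15.8, 17.4 and 6.14, and the log2 fold change of −0.33 (SE 0.36) became 0.01 without it. Vwf was at 75.3, 73.1 and 75.2 in 5FU-3 d21, above all PBS libraries (0.34, SE 0.08), and at 40.8, 56.3 and 35.6 in 5FU-1 d21 (−0.40, SE 0.18), so the signs of these values were opposite after 1 and 3 rounds. That difference was not tested.

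Among the 102 further genes 4 of the 94 tested passed in 5FU-1 d21 against PBS-1 d6, beside 0.221% of all genes. Selp was still at 46.5, 40.1 and 46.1 (2.16, SE 0.12, adjusted p = 0.00265 from edgeR), and with PBS-3 d6 as the control its log2 fold change was 0.58 (adjusted p = 0.151). Mmrn1 was at 427, 384 and 389 (−0.71, SE 0.07, adjusted p = 0.0189 from edgeR) and Clu, the granule chaperone clusterin, at 0.859, 1.16 and 1.46 (−2.94, SE 0.27, adjusted p = 0.0154). Thbs1 had no count in 5FU-1 d21 and was at least 49.2-fold lower against the floor of 3 counts per library (adjusted p = 0.0282 from edgeR). Without any 1 of the PBS-1 d6 libraries, or without the first 5FU-1 d21 library, only Selp of these 4 passed. Mmrn1 did not pass without the third 5FU-1 d21 library either. In 5FU-3 d21 0 of 91 tested genes passed with edgeR, beside 0.0237% of all genes, and 10 by DESeq2, beside 4.69%.

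**Figure D5:**
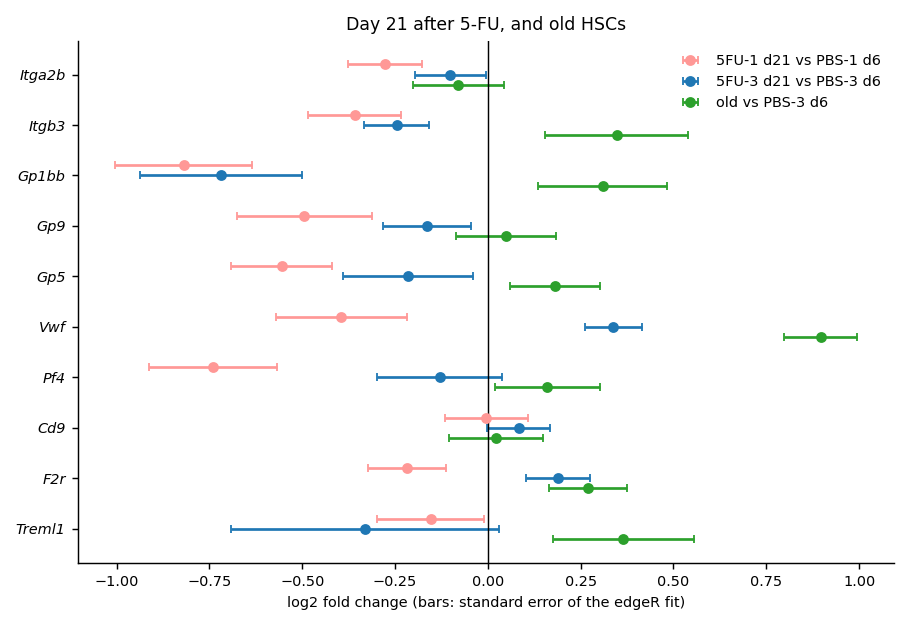
Log2 fold change (horizontal axis) of the 10 members (vertical axis) at day 21 after 5-FU against the PBS group of the same number of rounds, and in old HSCs against PBS-3 d6. Bars are standard errors of the edgeR fit, 3 libraries per group. Vwf in old HSCs, at 0.90, is farthest to the right.

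In old HSCs Vwf was higher than in every other group. Its normalized CPM was 123, 104 and 104, or 188% of the PBS-3 d6 mean, and the log2 fold change was 0.90 (SE 0.10). It was the only member past the threshold of edgeR in this comparison, beside 0.965% of 12847 genes in either direction and 0.529% higher, and it did not pass without the second old library (log2 fold change within 0.83 to 0.95 over all alternatives). With PBS-1 d6 as the control its log2 fold change was 0.92. Against 5FU-3 d21, whose Vwf level overlapped with that of 5FU-3 d6, the log2 difference was 0.56 (SE 0.10), again for 1 of 10 members, beside 2.18% of 12700 genes and 1.57% higher. That call was lost when any 1 of the 6 libraries was left out.

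The other members in old HSCs were at or above PBS-3 d6 on average except Itga2b. F2r was at 70.6, 58.9 and 63.6 (0.27, SE 0.11), without overlap with 50.5, 50.8 and 57.6 in PBS-3 d6. Treml1 was at 17.3, 19.8 and 27.01 (0.37, SE 0.19), Gp5 at 26.1, 23.8 and 28.03 (0.18, SE 0.12) and Gp1bb at 28.6, 22.7 and 19.04 (0.31, SE 0.17), each overlapping with PBS-3 d6. Gp9, Pf4 and Cd9 had log2 fold changes between 0.02 and 0.16. The libraries of Vwf and F2r thus lay above PBS-3 d6 without overlap, beside 8.44% of all genes, and against 5FU-3 d21 those of 3 members (Vwf, Gp1bb and Itgb3) did, beside 11.3%. The 10 erythroid markers summed to 70.4 to 124 normalized CPM in old HSCs and 36.8 to 55.7 in PBS-3 d6, and the 8 mature megakaryocyte markers to 25.7 to 27.6 and 25.3 to 32.4. Their part in the result was not tested.

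Of the further genes 2 of 94 rose in old HSCs against PBS-3 d6 and none fell, beside 0.965% of all genes called and 0.529% higher. Cavin2 was at 56.4, 46.03 and 51.02 against 31.2, 30.1 and 28.8 (0.76, SE 0.10, adjusted p = 0.0214 from edgeR), and Selp at 76.9, 52.9 and 60.2 against 23.8, 31.5 and 33.7 (1.08, SE 0.18, adjusted p = 0.0425). The call of Cavin2 was lost without any 1 of the 6 libraries (adjusted p from 0.0581 to 0.0824 by edgeR). The call of Selp was lost without any 1 of the 6 libraries (adjusted p from 0.0855 to 0.111 by edgeR). Thbs1 was at 71.9, 38.8 and 98.6 in old HSCs and 0, 8.29 and 3.13 in PBS-3 d6, where the spread was wide and the test did not pass (4.17, SE 0.93, adjusted p = 0.118 from edgeR). Against 5FU-3 d21, with 2.24, 2.08 and 1.77, it passed (5.09, SE 0.37, adjusted p = 0.00127 from edgeR). In that comparison 6 of 93 further genes rose and none fell, beside 2.18% of all genes called and 1.57% higher. Among the 6 were Clu, Cavin2, Gas6 and Mmrn1. The call of Gas6, a ligand of TAM receptors (1.01, SE 0.15, adjusted p = 0.0204 from edgeR), was lost without any 1 of the 6 libraries but the third 5FU-3 d21 library (adjusted p from 0.0577 to 0.0683 by edgeR).

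Ranked by mean level over the 7 groups, 5FU-1 d6 was lowest for 7 of the 10 members and old HSCs were highest for 7. Of the 60 pairs of neighbouring groups in these rankings, the libraries overlapped in 46 and did not in 14. For Itga2b the first 5 groups, from PBS-1 d6 (78.5 ± 6.54) to 5FU-1 d21 (64.7 ± 5.05), each overlapped with the next, and 5FU-3 d6 and 5FU-1 d6 stood apart. For Vwf the old group stood apart above 5FU-3 d21 (74.5 ± 1.27), and 5FU-1 d6 (70.2 ± 3.96) stood apart above PBS-3 d6 (58.7 ± 2.16; all mean ± SD, n = 3 libraries). For Cd9 every neighbouring pair overlapped.

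Per kilobase of the longest annotated transcript, the levels of the members in PBS-1 d6 lay between 5.56 and 23.2 CPM. Cd9 was at 23.2 ± 1.93 CPM per kilobase, Itga2b at 22.8 ± 1.90, Pf4 at 19.9 ± 2.92, F2r at 17.0 ± 1.07 and Gp9 at 16.6 ± 2.30. Treml1 was at 14.9 ± 1.57, Gp5 at 10.0 ± 1.43, Gp1bb at 7.07 ± 1.26, Vwf at 6.59 ± 0.68 and Itgb3 at 5.56 ± 0.55 (SD, n = 3 libraries). On this scale of levels the integrin chains differed, with Itga2b above Itgb3 in all libraries of PBS-1 d6, and Gp9 was above Gp1bb and Gp5. With the median length of the annotated transcripts Itga2b was at 121 ± 10.1 and Vwf at 26.7 ± 2.77, so that the order depends on the transcript that the cells use.

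Across the 21 libraries the members varied together in part. Of the 45 pairs of members, 35 had a positive Pearson correlation of log2 normalized CPM, with a median of 0.551 and a range from −0.250 (Cd9 and Treml1) to 0.941 (Gp1bb and Gp5). The points share the treatment groups, so these values describe the groups and carry no p. Among 10489 genes with a mean of at least 5 CPM, those most like Itga2b were Plek (r = 0.974), Mfsd2b (0.963), Icam4 (0.963), Ndrg1 (0.961) and Smim5 (0.941). Those most like Vwf were Nrg4 (0.871), Ces2g (0.845), Aldh2 (0.809), Pde3b (0.807) and Cpne8 (0.806). Those most like Pf4 were Gp9 (0.892), Nqo1 (0.797), Gp5 (0.789), Thbs1 (0.786) and Gp1bb (0.779), of which 3 are members.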

How the data were processed

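RNA of sorted HSCs was amplified with the SMART-Seq v4 kit and sequenced as single-end reads of 75 bases, in 3 independent experiments per the paper's methods. The deposited values are raw read counts per gene symbol, which the authors made from reads mapped to mm10; TopHat 2.0.13 and Cufflinks 2.2.1 are named in their methods and notes, and the counting program and the use of strand are not given in the sources used here. All sample columns of the table were used.

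The members and lists were chosen with earlier results of these data known. Counts were fitted in edgeR 4.0.16 (R 4.3.3; quasi-likelihood, robust) after filterByExpr and TMM, on the libraries of the groups compared, with Benjamini-Hochberg adjustment over all genes kept and a threshold of 0.05. The script was tested on simulated counts with known changes. Normalized CPM used TMM factors over all 21 libraries, and log2 CPM for correlations a prior count of 2. Members are described in every comparison. Of the 102 further genes, at most 6 higher and 6 lower per comparison among those called with a mean of at least 1 CPM are named, with part of the family partners of the members and Gata1, Nfe2, Fli1 and Selp. The partners Cd81, Cd82, Cd151 and Treml4 are not described. The result of 1 further gene of the lists is not reported here. Replicates are separate libraries. Pairs of replicates differed by 16.8 to 37.2 times the counting variance, so none was a copy or a repeated sequencing of another library. Whether they came from separate animals or cell pools cannot be told from this ratio. Alternatives were relative log expression factors, library totals, DESeq2 1.42.0, other low-count filters, a fit of all libraries, the replicate number as a block, the other PBS group as control, and leaving out each library. Positions and exons came from GENCODE M21, and promoters from RefSeq on GRCm38.p6. Where no separate animals are given per library, p-values measure the spread between these libraries.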

Additional observations from a re-analysis of the deposited data

Results flagged for a closer look

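The effects of 5-FU at day 6 in the first and the third round were compared by the interaction term of a model over 12 libraries. It was passed by 4 of the 10 members and 3 of the 96 further genes tested, beside 0.635% of 13227 genes. The rounds also differ in the suffix of the column names, which cannot be told apart from the number of rounds. The members were selected with this comparison in view, so that their values are a description and no test of them. Their difference on the log2 scale (the third minus the first round) was 1.20 for Itga2b, 2.35 for Gp1bb, 1.42 for Gp5 and 2.00 for Treml1. Without 1 of the 12 libraries, Gp1bb no longer passed in 10 fits, Gp5 in 8 and Treml1 in 6, and Itga2b passed in all 12. For P2ry1, an ADP receptor, it was 1.40 (SE 0.21, adjusted p = 0.0180 from edgeR), and it passed without any 1 of the libraries. For Cd63, a tetraspanin of granule membranes, it was −0.55 (SE 0.093, adjusted p = 0.0258 from edgeR), and the call was lost without any 1 of 6 of the 12 libraries (adjusted p up to 0.0680). For Selp it was −1.11 (SE 0.18, adjusted p = 0.0186 from edgeR), and the call was lost without any 1 of 4 libraries (adjusted p up to 0.0529). The PBS libraries of all 3 further genes stood apart between the rounds, with Selp and Cd63 higher and P2ry1 lower in PBS-3 d6 than in PBS-1 d6 (log2 differences of 1.58, 0.35 and −0.40), so the interaction values rest partly on the PBS groups.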

How the results depend on the processing

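The lowest count of a member in any library was 20 (Gp1bb in the second 5FU-1 d6 library), and whether depth limited the members was not tested. The 3 libraries per group limit the precision. Of 1130 alternative values of member log2 fold changes, 1070 kept their side of the threshold. Some uncalled values among these changed sign, by less than the standard error of the main fit. Of the rest 41 no longer passed, 15 newly passed, 4 uncalled values changed sign by more than that standard error and 0 reversed while called. The sign was the same in every alternative for 65 of 80 pairs of member and comparison. The replicate numbers did not pair the samples (correlations of deviations from −0.060 to 0.022). With the replicate block, the further genes called were 18 in place of 30 at day 6 of the third round, 1 in place of 3 for the interaction, 1 in place of 4 in 5FU-1 d21 and 0 in place of 2 in old HSCs against PBS-3 d6; the members called were 2 in place of 4 for the interaction and 0 in place of 1 for old HSCs against 5FU-3 d21. DESeq2 called 21 further genes for the interaction, 3 members and 20 further genes in 5FU-1 d21, 1 and 10 in 5FU-3 d21, 9 further genes in old HSCs against PBS-3 d6, 1 and 9 between the PBS groups, and 2 and 12 for old HSCs against 5FU-3 d21. The fit of all 21 libraries called 1 member and 9 further genes in 5FU-1 d21, 6 further genes in 5FU-3 d21, 4 in old HSCs, 1 between the PBS groups, and 2 members for old HSCs against 5FU-3 d21. Library totals called 2 further genes in 5FU-3 d21. With the other PBS group as control, 1 further gene was called in 5FU-1 d21, 3 in 5FU-3 d21 and 6 in old HSCs. The cause of these differences was not tested.

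With 1 library left out, the members called ranged from 7 to 7 and the further genes from 21 to 26 in 5FU-1 d6, from 2 to 4 and 18 to 21 in 5FU-3 d6, from 1 to 3 and 2 to 5 for the interaction, 0 and 1 to 4 in 5FU-1 d21, 0 and 0 in 5FU-3 d21, 0 to 1 and 0 to 1 in old HSCs against PBS-3 d6, 0 and 0 between the PBS groups, and 0 to 1 and 5 to 6 for old HSCs against 5FU-3 d21. Apart from leaving out libraries, all genes called ranged from 2013 to 3685 in 5FU-1 d6, 1485 to 3364 in 5FU-3 d6, 46 to 715 for the interaction, 3 to 725 in 5FU-1 d21, 0 to 592 in 5FU-3 d21, 31 to 569 in old HSCs, 0 to 547 between the PBS groups and 102 to 985 for old HSCs against 5FU-3 d21. With 1 library left out they were 1545 to 1878 (2751 with all), 1159 to 1534 (2280), 32 to 163 (84), 1 to 35 (28), 1 to 4 (3), 18 to 74 (124), 0 (2) and 61 to 183 (277) in the same order. With library totals the share of higher genes among all called was 41.2% in place of 52.2% in 5FU-1 d6 and 35.6% in place of 54.2% in 5FU-3 d6, where the median of all genes was −0.11, 36.8% in place of 52.4% for the interaction and 20.3% in place of 32.1% in 5FU-1 d21.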
